A study of Homo sapiens with 4 samples.

Results

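The genes FGA, FGB and FGG encode the alpha, beta and gamma chains of fibrinogen. These 3 genes, of 59050 gene symbols counted, were taken by symbol from RNA-seq of 4 libraries labelled as HepG2, a cell line established from a human liver tumor, and they were chosen with their counts in these libraries already known. For this reason the difference between treated and untreated libraries is described for the 3 genes. Calls over all genes that include them are not taken as a test of it. There were 2 untreated libraries (0 h) and 2 libraries of cells given doxorubicin at 1 ug/ml for 24 h. The drug damages DNA and was used here to raise p53. By these labels the groups differ in both drug and time, and the 2 cannot be told apart here. Wording such as after or with doxorubicin names the group and not a cause. The cells of both groups were grown in the same serum-containing medium, and no genetic change is named. A treatment tag of the doxorubicin libraries names a p53-miRNA in place of the drug. The titles call the untreated libraries nop53 and the doxorubicin libraries p53 and do not name the drug. The treatment protocol, which names it, was followed. The labels call the libraries biological replicates, and with 2 libraries per group the spread between them is poorly known.

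Fibrinogen is a plasma protein built from pairs of alpha, beta and gamma chains that are joined by disulfide bonds in the endoplasmic reticulum. Thrombin cuts short peptides from the alpha and beta chains to form fibrin, the mesh of a blood clot, and plasmin digests that mesh. The protein is made mainly by hepatocytes, in which the 3 genes are held active by liver factors such as C/EBP and are raised by IL-6 through STAT3 during the acute phase response to injury.

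Depth was between 27572740 and 36272180 counts per library, so that 3 counts corresponded to between 0.0827 and 0.109 CPM (the read count scaled by the library total). Untreated replicate 2 stood apart. Its Pearson correlation with the other libraries, across 17479 genes on the scale of log2 CPM, was between 0.883 and 0.887, against between 0.975 and 0.988 among the other 3 libraries, and it lay outside the range of the other 3 in 14301 genes (81.8%). Results are therefore also given without it. The liver label was not borne out by marker genes. Of 15 genes typical of liver, 12 stayed under 1 CPM in every library, FABP1 had no count at all, and ALB, which encodes albumin, had 0, 1, 2 and 3 counts in untreated replicates 1 and 2 and doxorubicin replicates 1 and 2. The exceptions were CPS1, an enzyme of the urea cycle, at between 317 and 1081 CPM, and AFP and TF, which reached 1.49 and 1.63 CPM in untreated replicate 2 alone. With CPS1 left out, the summed level of the liver markers was 0.414 and 4.61 CPM in the untreated libraries and 1.31 and 1.67 CPM in the doxorubicin libraries.

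All 3 chain genes were near the limit of detection in untreated libraries and were well above it after doxorubicin. The gamma chain gene FGG had 6 and 3 counts in untreated replicates 1 and 2, and 335 and 386 counts in doxorubicin replicates 1 and 2, which is 0.165, 0.104, 9.76 and 14.0 CPM. The beta chain gene FGB had 7, 5, 106 and 70 counts in the same order, or 0.193, 0.173, 3.09 and 2.54 CPM. The alpha chain gene FGA had 5, 6, 34 and 36 counts, or 0.138, 0.208, 0.991 and 1.31 CPM. In each of the 3 genes both doxorubicin libraries were above both untreated libraries and the groups did not overlap. The untreated values of the 3 genes lay close to each other, and in the doxorubicin libraries the order of CPM was FGG, FGB and FGA in both replicates.

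**Figure D1:**
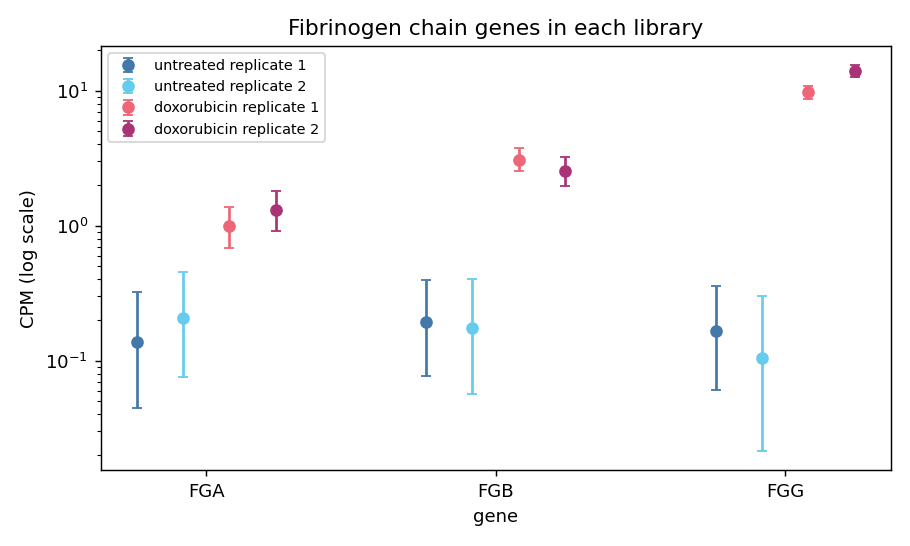
CPM of FGA, FGB and FGG (x axis) on a log scale (y axis) in each of the 4 libraries, with bars for the 95% Poisson interval of the count. The untreated points sit between 0.104 and 0.208 CPM, and the doxorubicin points between 0.991 and 14.0 CPM.

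For FGG the mean was 0.135 ± 0.0435 CPM (SD, n = 2) in untreated and 11.9 ± 3.0 CPM (SD, n = 2) in doxorubicin libraries. The ratio of doxorubicin to untreated counts per total was 84.3 (95% counting interval 44.2 to 185). The means of FGB were 0.183 ± 0.0140 and 2.81 ± 0.389 CPM (SD, n = 2 each), a ratio of 15.4 (8.62 to 30.5). The means of FGA were 0.173 ± 0.0495 and 1.15 ± 0.223 CPM (SD, n = 2 each), a ratio of 6.70 (3.52 to 14.0). These intervals cover counting error alone and are wide because 9, 12 and 11 untreated counts of FGG, FGB and FGA stand behind them. Summed over the 3 chains, the libraries held 18 and 14 counts in untreated cells and 475 and 492 counts in doxorubicin-treated cells, a ratio of 31.8 (22.4 to 46.8). The untreated library that stood apart in most genes did not stand apart in these, with 0.485 CPM for the 3 chains against 0.496 CPM in untreated replicate 1. Without untreated replicate 2 the ratios of FGG, FGB and FGA were 70.4, 14.7 and 8.21, and without untreated replicate 1 they were 112, 16.4 and 5.44.

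Between the doxorubicin replicates, FGG was 1.43 times as high in replicate 2 as in replicate 1 (95% counting interval 1.24 to 1.66), a difference larger than counting error. The same ratio was 0.822 (0.599 to 1.12) for FGB and 1.32 (0.801 to 2.17) for FGA, where the intervals include equal levels. Fibrinogen mRNA in bulk RNA can be higher because more cells express it or because each cell holds more of it, and the 2 cannot be told apart here.

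A fit of edgeR over the 17479 genes that passed its filter on low counts gave log2 fold changes, doxorubicin over untreated, of 6.23 (standard error 0.72) for FGG, 3.76 (0.69) for FGB and 2.57 (0.67) for FGA. All 3 genes passed the filter, and they did so through the doxorubicin libraries. Ordered by this log2 fold change from the highest, they took places 8, 38 and 134 among the 17479 genes. The quasi-likelihood test of edgeR called 0 of the 17479 genes (0.0%), and therefore none of the 3. A call asked for an adjusted p-value (Benjamini-Hochberg) under 0.05 together with a change of 1 or more on the log2 scale. The smallest adjusted p-value that this test gave any gene was 0.773, which many genes shared. At an unadjusted p-value under 0.05 the test had 768 genes (4.39%), of which 465 (2.66%) were higher and 303 (1.73%) lower with doxorubicin. DESeq2 called 89 genes (0.509%), 46 of them higher (0.263%), the likelihood ratio test 64 (0.366%), 56 of them higher (0.32%), and the exact test 46 (0.263%), 41 of them higher (0.235%). FGG and FGB were among them in each case while FGA was not. With the replicate number as a block the quasi-likelihood test called 20 genes (0.114%), 16 of them higher (0.0915%), and FGG was among these. Without untreated replicate 2, where untreated replicate 1 is assumed to vary as the doxorubicin libraries do, 815 of 18356 genes (4.44%) were called, 713 of them higher (3.88%), and all 3 chain genes were among them. Since the genes were chosen on this contrast, these counts describe where they lie and add no support.

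The groups did not overlap in the direction of higher CPM after doxorubicin in 5303 of the 17479 genes (30.3%), so that this alone sets the chain genes little apart. A gap of at least 4-fold between the higher untreated and the lower doxorubicin library was found in 144 genes (0.824%), all 3 chain genes included. For FGG the lower doxorubicin library had 59.0 times the CPM of the higher untreated library, for FGB 13.2 times and for FGA 4.77 times.

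The share of each chain is given as a description, since it comes from the counts by which the genes were chosen. In untreated replicate 1 FGA, FGB and FGG took 27.8% (exact binomial 95% interval 9.69 to 53.5), 38.9% (17.3 to 64.3) and 33.3% (13.3 to 59.0) of the 18 counts on the 3 genes. In untreated replicate 2 they took 42.9% (17.7 to 71.1), 35.7% (12.8 to 64.9) and 21.4% (4.66 to 50.8) of 14 counts. In doxorubicin replicate 1 the shares were 7.16% (5.01 to 9.86), 22.3% (18.6 to 26.3) and 70.5% (66.2 to 74.6) of 475 counts. In doxorubicin replicate 2 they were 7.32% (5.18 to 9.99), 14.2% (11.3 to 17.6) and 78.5% (74.6 to 82.0) of 492 counts. FGG took most of the fibrinogen counts in both doxorubicin libraries. In the untreated libraries it had fewer counts than FGB, with 6 against 7 in replicate 1 and 3 against 5 in replicate 2. These shares are of raw counts and are not corrected for exon length. The intervals cover counting error within a library, and the difference between the groups was not tested. Such shares do not depend on how the libraries are scaled.

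**Figure D2:**
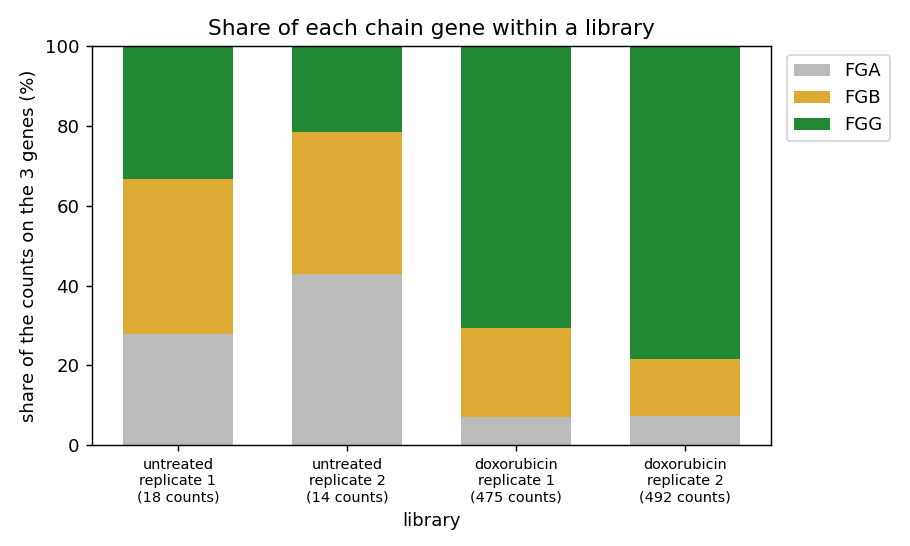
Share of the counts on the 3 genes that fell on FGA, FGB and FGG (y axis, percent) in each library (x axis, with the summed counts). FGG takes 33.3% and 21.4% in the untreated libraries and 70.5% and 78.5% in the doxorubicin libraries.

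Counts of different genes can be compared only per length, and the exons of FGA, FGB and FGG span 3.917, 3.641 and 2.326 kb (GENCODE release 44, basic transcripts, with overlapping exons merged). On the scale of CPM per kb, FGG was 16.6 and 18.1 times FGA in doxorubicin replicates 1 and 2, against 2.02 and 0.842 times in untreated replicates 1 and 2. FGB was 3.35 and 2.09 times FGA in the doxorubicin libraries and 1.51 and 0.897 times in the untreated libraries. FGG was 4.95 and 8.63 times FGB in the doxorubicin libraries and 1.34 and 0.939 times in the untreated libraries. The chains are needed in equal numbers in the protein, and their mRNAs were counted in unequal amounts per length in both doxorubicin libraries. In the untreated libraries the ratios rest on 3 to 7 counts per gene.

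The 3 genes lie side by side on chromosome 4 (GRCh38, GENCODE release 44) within 49.957 kb. FGB is on the forward strand at 154563011 to 154572807, and FGA (154583126 to 154590742) and FGG (154604134 to 154612967) are on the reverse strand. In this annotation 0 genes on the other strand overlap them, which matters because the strand setting of the counting is not stated, and 1 annotated pseudogene overlaps FGG on its own strand. Of 13 genes of the surrounding region in a list of neighbours, 10 stayed under 1 CPM in every library. PLRG1, which encodes a splicing factor and lies 12.611 kb from the cluster, had 92.4 and 67.6 CPM in untreated and 94.7 and 112.6 CPM in doxorubicin libraries, a log2 fold change of 0.21 (standard error 0.34). LRAT, a retinol acyltransferase gene 13.978 kb away on the other side, had 0 counts in all 4 libraries, and DCHS2, a cadherin gene 71.212 kb away, had 0, 1, 2 and 0 counts. For LRAT a count of 0 allows up to between 0.0827 and 0.109 CPM. The difference seen in the chain genes was thus not seen in PLRG1, and LRAT and DCHS2 were at the detection limit in both groups.

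The bases before the start sites of the 3 genes were searched because the counts of the 3 genes were higher together. Of each gene, 250 bases before the RefSeq start (GRCh38.p14) were read on both strands for CTGGGA, the core of the IL-6 response element of acute phase genes. For FGB 2 such windows are listed, and only the one furthest upstream was read. The matches are printed as 30 bases read 5′ to 3′ on the strand of the gene, with the match in capitals and its place counted back from the start site. The RefSeq start of FGG lies 311 bases inside the gene as GENCODE release 44 draws it, so that both FGG matches are within the span given above for that gene, while the starts of FGB and FGA differ by 31 and 0 bases.
FGG 161 to 156 (chr4:154612800-154612829, reverse strand): tgtgtgcaaaatCTGGGAacctgacagtat
FGG 42 to 37 (chr4:154612681-154612710, reverse strand, match on the other strand): cagtcctggctaTCCCAGgagcttacataa
FGB 112 to 107 (chr4:154562856-154562885, forward strand): aaataagctttgCTGGGAagatgttgctta
FGA 127 to 122 (chr4:154590852-154590881, reverse strand): gagcaagaatttCTGGGAtaccaacagcat

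CTGGGA was found in all 3 genes, and in 28.7% of all 35116 promoter windows of this length. Its longer form CTGGGAA, which overlaps it, was found in FGB and FGG and in 9.15% of windows. TTGCNNAA, a form of the C/EBP site, was found in FGA and FGB and in 9.05% of windows. TATAAA, a form of the TATA box present in 10.7% of windows, was not found in the 3 windows. The half-site of p53, searched by its consensus without mismatches and present in 5.57% of windows, was not found there either, which says only that these letters are absent from these windows. The motifs were chosen after the sequences were seen, and a match does not show that a factor binds.

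Transcripts of liver proteins and of other acute phase proteins were compared with the chain genes, since in liver they are made together. Of 20 acute phase genes 16 stayed under 1 CPM in every library, and 2 of them, ORM1 and SERPINA3, had no count. CRP, the C-reactive protein, had 0 and 0 counts in untreated and 1 and 0 in doxorubicin libraries, and HP, which encodes haptoglobin, had 1, 5, 0 and 1 counts. LBP, a gene for a protein that binds bacterial lipopolysaccharide, had 1 and 1 counts in untreated and 9 and 9 in doxorubicin libraries. LRG1, which encodes a leucine-rich glycoprotein, had 17, 9, 18 and 35 counts, or 0.97 (standard error 0.72) as log2 fold change. These 4 were named after their values were seen. C3, the complement component, was far above the others in level, at 131 and 156 CPM in untreated and 182 and 170 CPM in doxorubicin libraries, a log2 fold change of 0.14 (standard error 0.30). LCN2, which encodes lipocalin 2, an iron-binding protein of innate immunity, had 3 and 7 counts in untreated and 55 and 30 counts in doxorubicin libraries. Its log2 fold change was 2.95 (standard error 0.78), at an adjusted p-value of 0.773 in edgeR, the smallest of any gene tested. When untreated replicate 2 was left out the log2 fold change of LCN2 was 3.84. Of the 5 acute phase genes tested 0 were called, and their median log2 fold change was 0.14, against 0.01 over all genes tested. At an unadjusted p-value under 0.05 in the quasi-likelihood test 1 (LCN2) was higher, against 2.66% of all genes tested. Both doxorubicin libraries were above both untreated libraries in 3 (C3, LCN2 and LRG1), against 30.3% of all genes tested. Without untreated replicate 2 the median was 0.73 over 7 genes. The 3 liver markers tested (CPS1, AFP and TF) had log2 fold changes of -0.10, -0.99 and -1.86. Without untreated replicate 2 those of CPS1 and AFP were -0.72 and 1.24.

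**Figure D3:**
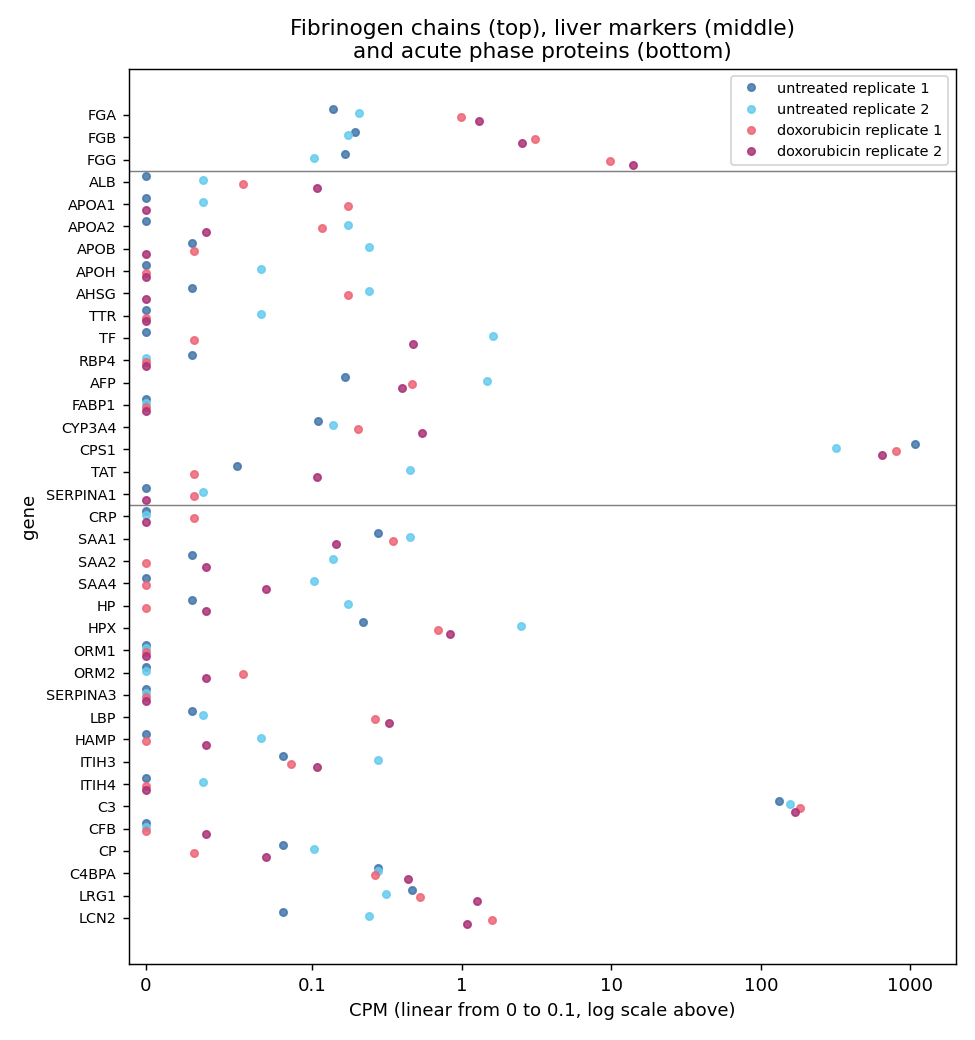
CPM (x axis, linear from 0 to 0.1 and log scale above) of the 3 chain genes, 15 liver marker genes and the acute phase genes not already among them (y axis) in the 4 libraries, 1 point per library. The chain genes reach 14.0 CPM in doxorubicin libraries, while CPS1 and C3 alone are higher and the next of the others, HPX, reaches 2.49 CPM.

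Other cell types that carry or bind fibrinogen were looked for by their markers. Of 10 platelet and blood cell genes 6 stayed under 1 CPM in every library and HBB had no count. Their summed level was 3.56 and 8.14 CPM in untreated and 4.55 and 4.35 CPM in doxorubicin libraries. Of 10 lung epithelial genes 7 stayed under 1 CPM, SFTPA2 had no count, and the sums were 2.26 and 6.96 CPM in untreated and 3.03 and 3.55 CPM in doxorubicin libraries. Of 7 stromal and vessel genes 1 (COL1A2) stayed under 1 CPM, and the sums were 229.956 and 169.757 CPM in untreated and 280.792 and 281.800 CPM in doxorubicin libraries. Among these LUM, a collagen-binding proteoglycan, had 65.4 and 49.3 CPM in untreated and 135 and 163 CPM in doxorubicin libraries. DCN, named after its values were seen, had 0.469, 0.623, 7.69 and 6.85 CPM. CDH5, a cadherin of vessel walls and also named after its values were seen, went the other way, with 8.52 and 3.29 CPM in untreated and 1.46 and 0.943 CPM in doxorubicin libraries. COL1A1 and COL3A1, collagen genes, had log2 fold changes of -0.02 (standard error 0.42) and -0.60 (0.34). Of the 6 stromal markers tested 2 were above 0 and 4 below, with a median of -0.04, 0 were called, and 2 higher (LUM and DCN) and 1 lower (CDH5) had an unadjusted p-value under 0.05. The same 3 were called when untreated replicate 2 was left out. The part of these cells in the result was not tested.

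The IL-6 pathway, which raises fibrinogen in liver, was measured in 15 of 16 listed genes, of which 0 were called and 0 had an unadjusted p-value under 0.05 in the quasi-likelihood test of edgeR. Their median log2 fold change was 0.48, and 0.13 without untreated replicate 2. In 10 of the 15 both doxorubicin libraries were above both untreated libraries, against 30.3% of all genes tested. This difference was not tested. The ligand gene IL6 had 4.33 and 3.88 CPM in untreated and 8.19 and 6.53 CPM in doxorubicin libraries, a log2 fold change of 0.69 (standard error 0.49). Its receptor genes IL6R and IL6ST had log2 fold changes of 0.36 (0.44) and 0.72 (0.35). OSMR, the oncostatin M receptor gene, had 0.76 (0.32). The values of STAT3, the transcription factor of the pathway, were 356 and 233 CPM in untreated and 309 and 346 CPM in doxorubicin libraries, a log2 fold change of -0.01 (standard error 0.33). SOCS3, a feedback inhibitor whose transcript is a usual readout of STAT3, had 63.5, 54.5, 75.2 and 69.3 CPM and a log2 fold change of 0.14 (0.33). STAT3 overlapped between the groups, and SOCS3 was slightly higher in both doxorubicin libraries.

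Of 14 genes for transcription factors that act on the fibrinogen promoters in liver 11 were tested, 0 were called and 0 had an unadjusted p-value under 0.05. Their median log2 fold change was -0.43, and 0.01 without untreated replicate 2. CEBPB, the C/EBP factor of the acute phase, had 175 and 327 CPM in untreated and 234 and 319 CPM in doxorubicin libraries. CEBPD and USF2 had log2 fold changes of -0.52 (standard error 0.36) and -0.66 (0.32). HNF4A, which encodes a nuclear receptor of hepatocytes, had 21 and 8 counts in untreated and 66 and 33 counts in doxorubicin libraries. Its log2 fold change was 1.68 ± 0.69 (SE), at an adjusted p-value of 0.773 in edgeR, the smallest of any gene tested.

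Of 16 genes of coagulation factors that act with fibrinogen, 10 stayed under 1 CPM in every library and 7 were tested, 0 were called, 0 had an unadjusted p-value under 0.05, and the median log2 fold change was -0.30, or 0.31 without untreated replicate 2. F2, the gene of prothrombin, had 1, 6, 2 and 4 counts and was not tested. F3, which encodes tissue factor and starts the cascade, had 48.7 and 21.9 CPM in untreated and 82.2 and 94.9 CPM in doxorubicin libraries. Its log2 fold change was 1.16 ± 0.47 (SE), at an adjusted p-value of 0.773 in edgeR, the smallest of any gene tested. GGCX and VKORC1, of the vitamin K cycle, had log2 fold changes of -0.30 (0.37) and 0.00 (0.38). Among 12 anticoagulant genes 7 were tested and 0 were called, with a median of -0.16, or 0.19 without untreated replicate 2. At an unadjusted p-value under 0.05 in the quasi-likelihood test, where 2.66% of all genes tested were higher, 1 of the 7 was higher. That gene, TFPI, encodes the inhibitor of the tissue factor pathway and had 48.7 and 29.8 CPM in untreated and 72.0 and 116.8 CPM in doxorubicin libraries, a log2 fold change of 1.10 (standard error 0.43).

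Genes of fibrinolysis, the digestion of fibrin, were tested in 10 of 13 cases, and 0 were called. Their median log2 fold change was -0.12, which was 0.23 without untreated replicate 2. At an unadjusted p-value under 0.05 in the quasi-likelihood test, where 2.66% of all genes tested were higher, 2 of the 10 were higher. Among them was SERPINB2, named after its values were seen, with 2 and 6 counts in untreated and 27 and 21 counts in doxorubicin libraries. PLAUR, the receptor of urokinase, was at 83.5 and 60.6 CPM in untreated and 99.1 and 82.3 CPM in doxorubicin libraries. PLAU, the gene of urokinase itself, had 13, 33, 3 and 9 counts. Without untreated replicate 2, where untreated replicate 1 is assumed to vary as the doxorubicin libraries do, SERPINB2 was called, and so were LCN2 of the acute phase list and F8 of the coagulation list, the last named after its values were seen.

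Genes that share the fibrinogen domain were tested in 9 of 19 cases. Of these 0 were called, and the median log2 fold change was 0.77, or 1.20 without untreated replicate 2. At an unadjusted p-value under 0.05 in the quasi-likelihood test 4 of the 9 were higher, against 2.66% of all genes tested. FGL1, the liver gene closest in name to the chain genes, had 6, 0, 4 and 1 counts and was not tested. FIBCD1, the gene of the list with the highest mean CPM, overlapped between the groups. It had 65.8, 49.7, 77.4 and 59.3 CPM, a log2 fold change of 0.09 (standard error 0.37). ANGPTL4, a secreted inhibitor of lipoprotein lipase, had 4.91 and 3.74 CPM in untreated and 27.9 and 23.3 CPM in doxorubicin libraries, a log2 fold change of 2.41 (standard error 0.46). It was the only gene of the list that DESeq2 called. TNC, an extracellular matrix protein gene, had 4.52, 4.09, 13.1 and 9.86 CPM, a log2 fold change of 1.26 (0.48). The other 2 of the 4 higher genes were ANGPTL2 and TNXB, named after their values were seen, of which TNXB had 0.717, 0.762, 3.21 and 3.48 CPM. With untreated replicate 2 left out the log2 fold changes of FIBCD1, ANGPTL4, TNC and TNXB were -0.09, 2.24, 1.20 and 2.07.

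Genes of fibrinogen receptors, mostly integrins, were all measured. Of 10 genes 0 were called, with a median log2 fold change of 0.49, or 0.88 without untreated replicate 2. At an unadjusted p-value under 0.05 in the quasi-likelihood test 2 were higher, against 2.66% of all genes tested. These 2 were ITGB3 and ITGAX, named after their values were seen. ITGB3, a subunit of the platelet fibrinogen receptor, had 7 and 3 counts in untreated and 39 and 32 counts in doxorubicin libraries. ITGA5, a fibronectin receptor subunit that also binds fibrin, had 292 and 410 CPM in untreated and 637 and 665 CPM in doxorubicin libraries, a log2 fold change of 0.73 (standard error 0.30). ITGB1 and ITGAV had 0.43 (0.26) and 0.30 (0.32). The log2 fold changes of ITGB3, ITGAX and ITGA5 stayed above 0 when untreated replicate 2 was left out.

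Assembly and export of fibrinogen use general factors of the endoplasmic reticulum, and these were abundant throughout. All 14 listed genes were tested, with 0 called, 0 at an unadjusted p-value under 0.05 and log2 fold changes between -0.43 and 0.49. The chaperone genes CALR and CANX had -0.31 (standard error 0.27) and -0.08 (0.25), and P4HB, a disulfide isomerase gene, had -0.14 (0.32).

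**Figure D4:**
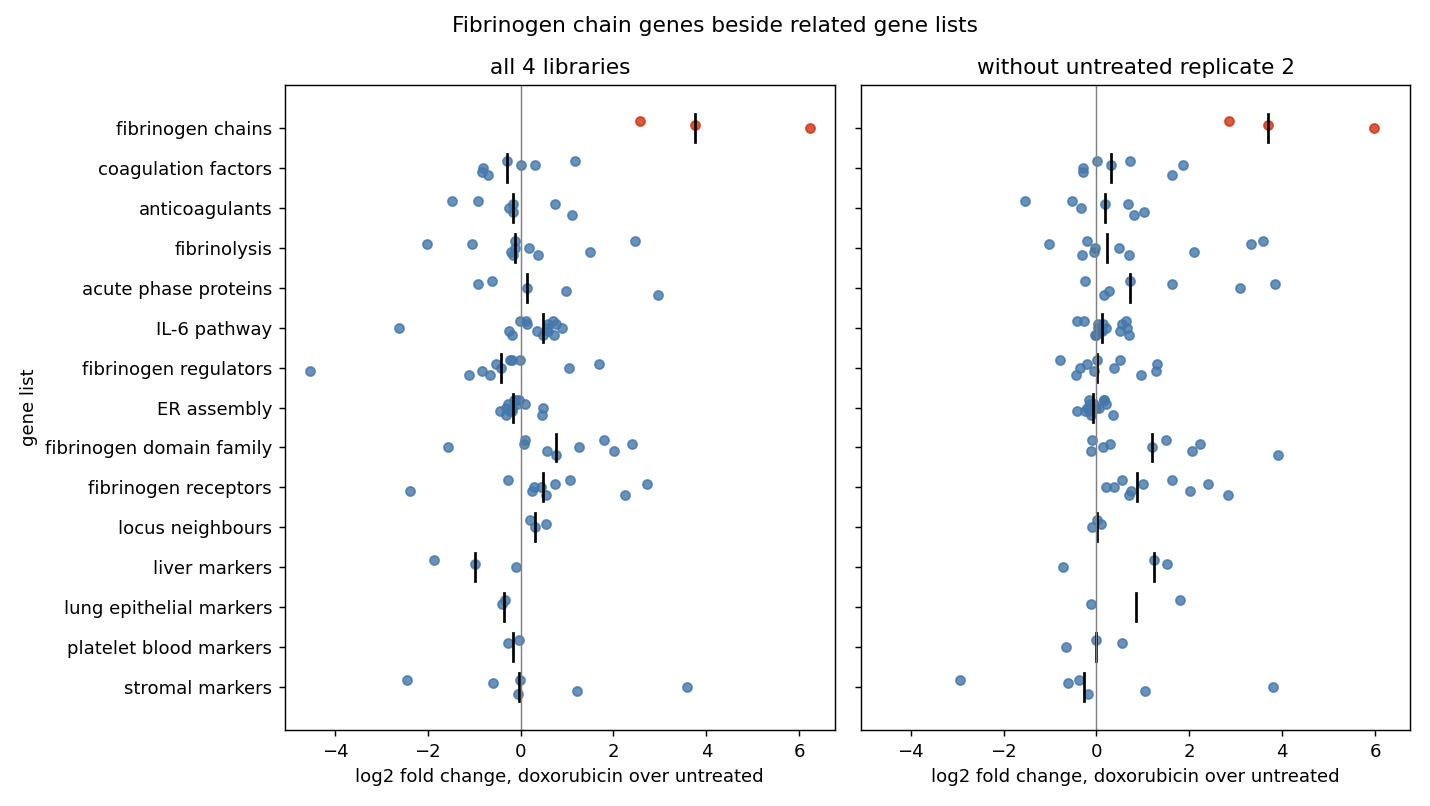
Log2 fold change, doxorubicin over untreated (x axis), of the tested genes of each list (y axis), with all 4 libraries on the left and without untreated replicate 2 on the right; each point is a gene and each vertical bar the median of its list. The 3 chain genes lie at 2.57, 3.76 and 6.23 on the left, and the medians of the other lists between -0.99 and 0.77.

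The genes whose pattern over the 4 libraries was most like that of the chain genes were sought among 9411 genes with a mean of at least 10 CPM. Likeness was the Euclidean distance between the centred log2 CPM of a gene and the mean of the centred log2 CPM of the chain genes, which was -1.88, -1.93, 1.84 and 1.96 in untreated replicates 1 and 2 and doxorubicin replicates 1 and 2. The 5 closest were PPFIA4 (distance 0.91), NDUFA4L2 (0.98), CA9 (1.10), AKR1C1 (1.11) and CEMIP (1.35). CA9, a carbonic anhydrase gene, had 38.7 and 17.4 CPM in untreated and 319 and 226 CPM in doxorubicin libraries. NDUFA4L2, which encodes a mitochondrial protein, had 7.06, 6.03, 82.8 and 48.8 CPM, and AKR1C1, an aldo-keto reductase gene, had 4.74, 1.97, 31.9 and 29.2 CPM. Their log2 fold changes were 3.13, 3.18 and 3.01, between those of FGA and FGB. A distance over 4 libraries is a description of these libraries and says nothing of shared control.

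**Figure D5:**
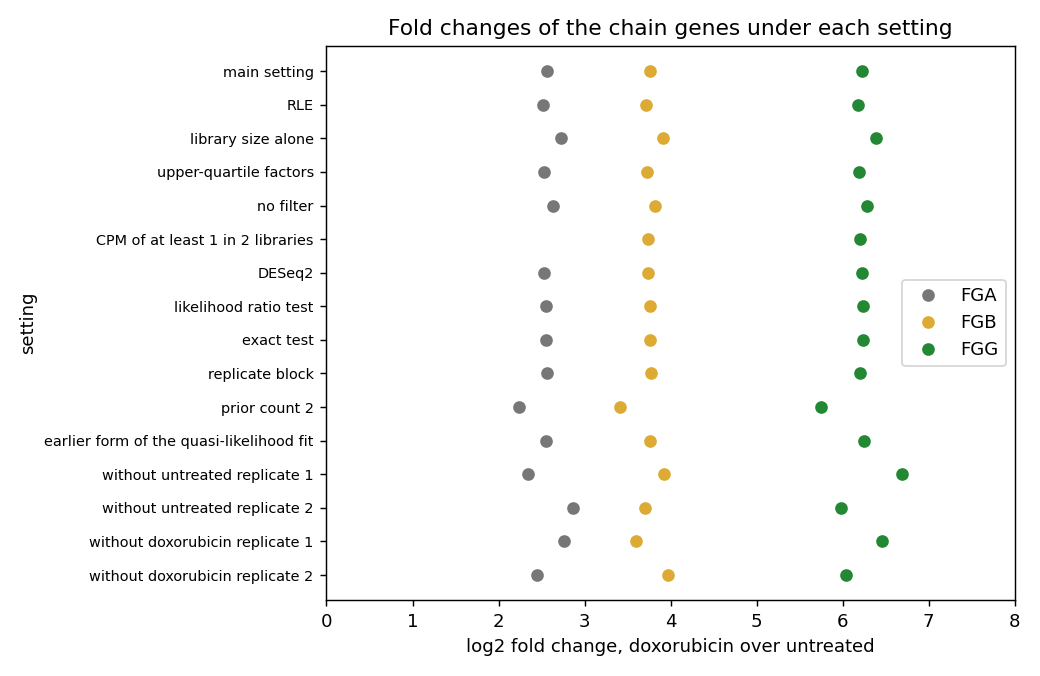
Log2 fold change, doxorubicin over untreated (x axis), of FGA, FGB and FGG under each setting of the analysis (y axis). FGA lies between 2.24 and 2.86, FGB between 3.41 and 3.97 and FGG between 5.75 and 6.69, and FGA has no value where at least 1 CPM in 2 libraries was required.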

How the data were processed

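The authors filtered and trimmed the reads (FastQC, Cutadapt), mapped them with HISAT2 to hg38 and deposited raw read counts per gene, 1 table per library. The methods name HTSeq for counting and the header names GENCODE release 31. Versions, strand setting and read multiplicity are not given in the sources used here. Symbols were matched to GENCODE release 44 for positions and exon lengths.

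CPM was the count scaled by the library total. All 4 libraries entered 1 fit of edgeR 4.0.16 (R 4.3.3), with low genes removed by filterByExpr, TMM scaling, a prior count of 0.125 and the newer form of the quasi-likelihood test. Genes were called at the thresholds of the study (adjusted p-value under 0.05, log2 fold change of 1 or more in either direction). The standard error of a log2 fold change was its size divided by the square root of the F statistic of the quasi-likelihood test. It is therefore not an estimate separate from that test. DESeq2 1.42.0 was an alternative. Log2 CPM for correlations and distances used a prior count of 2. Intervals (95%, exact Poisson, exact binomial, or binomial given the sum for ratios) cover counting error alone. The fits were tested on simulated data. Intervals and other values were computed in Python 3.11.15 with SciPy 1.17.1.

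The members and lists were chosen with earlier results of these data known. Besides the members, genes were named as the 3 with the highest mean CPM of each list, a set of genes listed by symbol whatever their values, and the 5 nearest in pattern, and others are marked. Lists: coagulation factors, anticoagulants, fibrinolysis, acute phase, IL-6 pathway, regulators, endoplasmic reticulum, fibrinogen domain, receptors, neighbours, and liver, lung, blood and stromal markers. Replicate numbers come from the titles. The number was not taken to pair libraries across the arms, and whether it does was not settled. Across genes, the departure from the mean of the arm had a correlation of 0.0219 between libraries with the same number. This value cannot decide the question. With 2 libraries per arm their departures mirror each other, so both pairs give the same value. Untreated replicate 2, which stood apart in most genes, also enters it. Some items are not reported here.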

Additional observations from a re-analysis of the deposited data

How the results depend on the processing

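The log2 fold changes of FGA (14 alternatives), FGB (15) and FGG (15) stayed above 0 and ranged from 2.24 to 2.86, 3.41 to 3.97 and 5.75 to 6.69. FGA did not pass the filter of at least 1 CPM in 2 libraries and has no value there. A prior count of 2 gave 2.24, 3.41 and 5.75 for FGA, FGB and FGG. Leaving out 1 library gave 2.34 (without untreated replicate 1) to 2.86 for FGA, 3.59 to 3.97 for FGB and 5.98 to 6.69 for FGG. An arm left with 1 library is assumed to vary like the other arm. Over all genes the calls numbered 0 with all 4 libraries, 89 with DESeq2, 64 with the likelihood ratio test, 46 with the exact test and 20 with the replicate block, whose numbers were not shown to pair the libraries. They ranged from 0 (without either doxorubicin replicate) to 8697 (without untreated replicate 1), with 815 without untreated replicate 2. The earlier form of the quasi-likelihood test, chosen after seeing the data, called 0. DESeq2, the likelihood ratio test and the exact test each called 1 gene of the fibrinogen domain list and 1 stromal marker, where the quasi-likelihood test called 0. With library size alone the median of all genes moved by 0.16 on the log2 scale, and the medians of the IL-6 pathway, regulators and endoplasmic reticulum genes became 0.64, -0.27 and -0.0074. Without a filter the medians were -0.86 for anticoagulants, -0.28 for acute phase proteins, -0.51 for regulators, 0.057 for the fibrinogen domain list and -1.41 for platelet and blood markers. With at least 1 CPM in 2 libraries they were 1.51 for acute phase proteins and -0.51 for regulators. With 1 library left out, medians ranged from -0.48 to 0.31 for coagulation factors, -0.34 to 0.19 for anticoagulants, -0.11 to 0.23 for fibrinolysis, 0.15 to 0.73 for acute phase proteins, 0.13 to 0.80 for the IL-6 pathway and -0.56 to 0.0053 for regulators. They ranged from 0.017 to 1.00 for neighbours, -1.86 to 1.24 for liver markers, -1.14 to 0.85 for lung markers and -2.18 to -0.0033 for platelet and blood markers. Calls then ranged from 0 to 4 for coagulation factors and liver markers, 0 to 2 for anticoagulants, acute phase proteins, neighbours, lung and blood markers, 0 to 5 for fibrinolysis, 0 to 8 for the IL-6 pathway, 0 to 6 for regulators, 0 to 1 for endoplasmic reticulum genes, 0 to 7 for the fibrinogen domain list, 0 to 4 for receptors and 0 to 3 for stromal markers. Apart from receptors, each list reached its highest count without untreated replicate 1, where the calls over all genes were most numerous. The counts were not compared with the share called over all genes and are not read as results of the lists. Per exon length FGA, FGB and FGG took 4.77%, 16.01% and 79.2% in doxorubicin replicate 1 and 4.73%, 9.89% and 85.4% in doxorubicin replicate 2. Of 790 values of the other named genes under the alternatives, 733 moved by less than the SD within groups. That SD includes untreated replicate 2, which stood apart, and several alternatives change the test more than the fold change. The count is therefore a weak measure of stability. The cause of these differences was not tested. Depth limits the untreated values of the chain genes, which rest on 3 to 7 counts each.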
